A study of Homo sapiens with 18 samples.

Results

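The 68 genes described here encode the ephrins and their Eph receptors, the semaphorins of classes 3 to 7 with their plexin and neuropilin receptors, the SLIT ligands with their ROBO receptors, and the netrins with the UNC5 receptors. They were taken by gene symbol from the 46218 gene IDs of the deposited table, so that no measured value entered the rule, although results of these data were known when the gene families were chosen. Expression was measured by bulk RNA sequencing in 6 groups of 3 libraries, 18 in all. The groups are U118-MG sgDDA1, U118-MG sgCon, T98G sgDDA1, T98G sgCon, LN229 sgDDA1 and LN229 sgCon. U118-MG, T98G and LN229 are established human glioblastoma cell lines, sgDDA1 is a CRISPR guide against DDA1 and sgCon is the control guide. DDA1 is a small DDB1-binding subunit of CRL4 ubiquitin ligases. All groups were grown in the same serum-containing DMEM, and the sources used here do not give whether the cells of a group were a pool or a clone, nor how long after the guide they were collected. Separate cultures behind the 3 replicate libraries are not recorded in the labels, and every p-value is read against a spread among libraries that may be technical.

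Guidance proteins steer growing axons and migrating cells by attraction, repulsion and adhesion between cells. Ephrins are held in the membrane of one cell and bind Eph receptor tyrosine kinases on the next, with signals passing into both cells. Semaphorins act through plexins, and most of the secreted class 3 members also need a neuropilin as co-receptor, while SLIT proteins bind ROBO receptors and netrins bind DCC and UNC5 receptors. In glioblastoma several of these genes, EPHA2 and EPHA3 among them, are known for roles in invasion and in stem-like cells.

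The upstream promoter sequences of 4 members are shown as examples of genes that moved alike or in opposite directions in the lines. EFNA2 and EFNA3 were higher with sgDDA1 in both T98G and LN229, and PLXNA2 and EPHA5 were lower with sgDDA1 in T98G and higher with it in LN229. Each sequence holds the 250 bases before the RefSeq gene start in GRCh38.p14, 5′ to 3′ on the strand of the gene, and capitals mark GC boxes, the letters GGGCGG or their reverse complement. EFNA2 is at chr19:1285623-1285872 on the plus strand, EFNA3 at chr1:155078587-155078836 on the plus strand, PLXNA2 at chr1:208244385-208244634 on the minus strand and EPHA5 at chr4:65670490-65670739 on the minus strand.
EFNA2: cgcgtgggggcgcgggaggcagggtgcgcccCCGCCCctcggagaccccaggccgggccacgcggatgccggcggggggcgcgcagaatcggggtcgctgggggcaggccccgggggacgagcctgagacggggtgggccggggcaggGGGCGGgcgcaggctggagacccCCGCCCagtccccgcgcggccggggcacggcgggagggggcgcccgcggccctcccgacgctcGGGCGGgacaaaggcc
EFNA3: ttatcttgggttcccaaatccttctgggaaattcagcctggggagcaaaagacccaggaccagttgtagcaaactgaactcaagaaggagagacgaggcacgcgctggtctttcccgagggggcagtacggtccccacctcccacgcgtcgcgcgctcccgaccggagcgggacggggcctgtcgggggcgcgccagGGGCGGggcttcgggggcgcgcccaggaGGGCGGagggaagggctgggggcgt
PLXNA2: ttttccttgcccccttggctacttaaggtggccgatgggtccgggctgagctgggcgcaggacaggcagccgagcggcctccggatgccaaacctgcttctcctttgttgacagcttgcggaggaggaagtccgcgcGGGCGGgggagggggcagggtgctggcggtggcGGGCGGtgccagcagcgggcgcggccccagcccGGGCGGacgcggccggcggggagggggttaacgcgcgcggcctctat
EPHA5: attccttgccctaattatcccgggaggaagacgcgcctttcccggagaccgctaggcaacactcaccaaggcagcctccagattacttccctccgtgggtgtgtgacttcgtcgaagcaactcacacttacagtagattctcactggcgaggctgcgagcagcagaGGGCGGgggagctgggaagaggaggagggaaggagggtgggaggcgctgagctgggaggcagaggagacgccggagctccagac

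A promoter entry was found for 58 of the 68 members. EFNB3, EPHA10, NRP1, NTN1, NTN3, SEMA3A, SEMA6A, SEMA6B, UNC5B and UNC5D had none. Motifs were searched in the 250 bases before the start, where a GC box stood in 43 of the 58 (74.1%) and in 42.6% of all 35116 promoters. The median number of CpG pairs was 17 in the members and 11 in all promoters. The E-box CACGTG stood in 6.9% of the members and 6.34% of all promoters, and the TATA box TATAAA in 1.72% and 10.7%. Both strands were searched for each motif and matches were allowed to overlap. The members entered with 1 promoter per gene, while the set of all promoters was not reduced in this way or matched by gene type. Of the sequences printed, EFNA2 held 36 CpG pairs and 4 GC boxes, EFNA3 held 23 and 2, PLXNA2 held 27 and 3, and EPHA5 held 14 and 1. None of the 4 held the E-box or the TATA box.

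Library totals were 44.9 to 55.1 M counts, apart from 94.1 M in LN229 sgCon 1, and 3 counts in a library equal 0.0319 to 0.0668 CPM, which is the count scaled to the size of the library. DDA1 (ENSG00000130311) had 56.6, 59.8 and 55.6 CPM in T98G sgDDA1, against 61.4, 68.3 and 67.1 CPM in T98G sgCon, which is -0.20 ± 0.05 on the log2 scale (SE, adjusted p = 0.00107 in edgeR). Its LN229 levels were 34.2, 32.1 and 34.8 CPM in sgDDA1, against 47.6, 49.2 and 48.9 CPM in sgCon (-0.52 ± 0.05, adjusted p = 9.22e-11). A guide can disrupt the protein and leave the transcript, so these levels check the labels only in part. In the libraries labelled U118-MG, DDA1 had 66.3, 59 and 63.8 CPM in sgDDA1, against 71.8, 56 and 50.1 CPM in sgCon, and the groups overlapped (0.09 ± 0.10, adjusted p = 0.45). The libraries labelled U118-MG sgCon stand apart from their label. Across genes their log2 levels had a Pearson correlation of 0.970 to 0.987 with LN229 sgCon and of 0.975 to 0.992 with LN229 sgDDA1, but of 0.900 to 0.914 with U118-MG sgDDA1. Each of the 3 libraries was closer to LN229 sgDDA1 than to LN229 sgCon, and U118-MG sgCon 1 differed from the other 2 libraries of its group more than any other pair of replicates did, with a chi-square per gene of 181 against 3.74 to 22.6. The groups labelled U118-MG therefore do not form a contrast of guides, and they are described after T98G and LN229.

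Markers were read as summed CPM of fixed lists. Of 10 glial and glioma markers, 4 reached 1 CPM in T98G and 6 in LN229. Their sum was 2716 to 2758 CPM in T98G sgDDA1 and 3636 to 3687 in T98G sgCon, and 185 to 201 CPM in LN229 sgDDA1 and 134 to 142 in LN229 sgCon. In T98G most of the sum was CD44, with means of 1854 CPM in sgDDA1 and 2351 CPM in sgCon, and VIM, with 622 and 885 CPM. GFAP, OLIG2 and SOX2 stayed under 1 CPM there. Markers of the list differed in direction. NES averaged 57 CPM in LN229 sgDDA1 and 9.97 CPM in LN229 sgCon, and 4.48 and 2.34 CPM in T98G. VIM averaged 66 and 82.7 CPM in LN229. S100B, OLIG1 and FABP7 were at 0 in all T98G libraries, and FABP7 averaged under 0.1 CPM in both LN229 groups. The 7 neuron markers summed to 22.7 to 23.4 CPM in T98G sgDDA1 and 15.4 to 18.6 in T98G sgCon, and to 36.9 to 39.8 CPM in LN229 sgDDA1 and 28.6 to 30.1 in LN229 sgCon, with STMN2 and DCX at 0 in all T98G libraries. The 6 endothelial markers summed to 1.38 to 1.87 CPM in T98G sgDDA1 and 1.44 to 1.72 in T98G sgCon, and to 2.7 to 2.91 CPM in LN229 sgDDA1 and 1.45 to 1.71 in LN229 sgCon. The 6 immune markers together stayed under 2 CPM in these groups. The fibroblast and pericyte list summed to 357 to 362 CPM in T98G sgDDA1 and 362 to 390 CPM in T98G sgCon. In LN229 it summed to 32.8 to 36.6 CPM in sgDDA1 and 17.3 to 19.3 CPM in sgCon. The part of these lists in the results below was not tested.

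**Figure D1:**
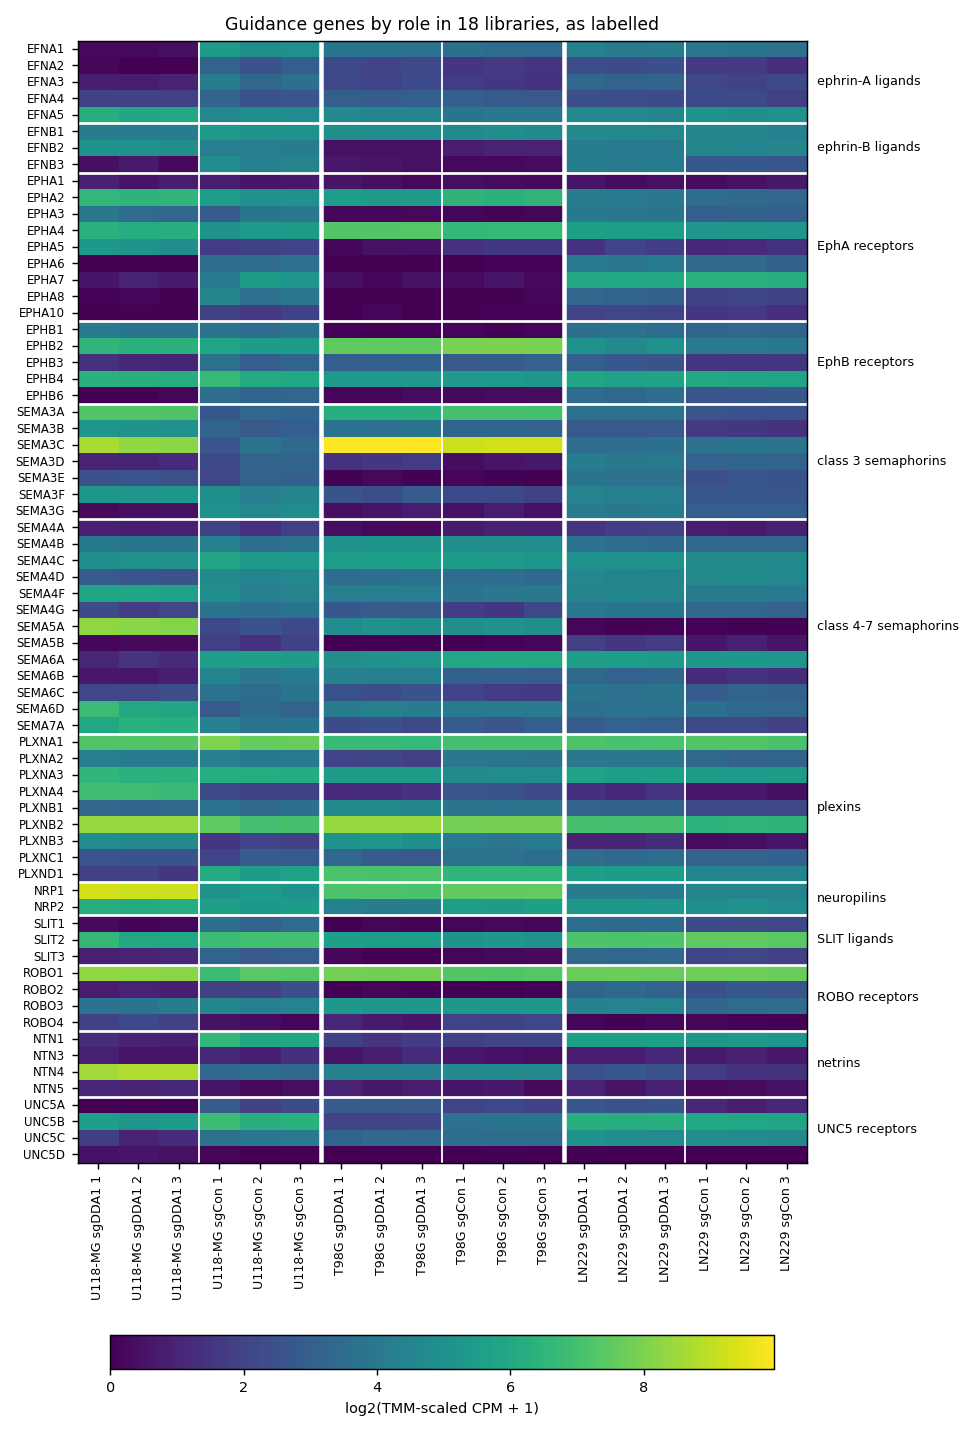
Levels of the 68 guidance genes (rows, by role) in the 18 libraries (columns, by labelled group), as log2(TMM-scaled CPM + 1). SEMA3C is brightest in T98G, NRP1, NTN4 and SEMA5A are bright in U118-MG sgDDA1, and the columns labelled U118-MG sgCon look like those of LN229.

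The highest guidance genes differed in part between the lines, and PLXNB2 was among them in each group named here. On the FPKM scale, which divides by gene length and so allows genes to be compared, the highest members in T98G sgCon were SEMA3C with 95.9 ± 2.94 FPKM (SD, n = 3), the receptor PLXNB2 with 31.4 ± 0.388 and the receptor EPHA2 with 20 ± 0.746. SEMA3C encodes a secreted semaphorin. The highest members in LN229 sgCon were the receptor ROBO1 with 21.2 ± 0.403 FPKM, its ligand SLIT2 with 17.6 ± 0.586, PLXNA1 with 14.4 ± 0.752 and PLXNB2 with 13.6 ± 0.654. The spreads of PLXNA1 and PLXNB2 overlapped, and those of the other neighbours named did not. In U118-MG sgDDA1, the netrin NTN4 led with 79 ± 5.31 FPKM, followed by SEMA3C with 46.2 ± 7.8, NRP1 with 42.9 ± 2.2 and PLXNB2 with 37.7 ± 0.401. There the spreads of SEMA3C and NRP1 overlapped.

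Between the control groups, T98G sgCon had 29 members higher and 32 lower than LN229 sgCon at an adjusted p under 0.05, of 67 tested. Over all genes 38.1% were higher and 39.8% lower, 77.9% together, while 6 of the 67 members tested were not called. UNC5D, with at most 2 counts in any group of these lines, was the member left untested. SEMA5A, a transmembrane semaphorin, had 30.2, 32 and 28.9 CPM in T98G sgCon, against 0.0587, 0.0376 and 0.0369 CPM in LN229 sgCon. That is a difference of 9.25 ± 0.17 on the log2 scale (adjusted p = 3.52e-31). It rests on 10 counts over the LN229 sgCon libraries, so its SE may be too small. EPHA7, an ephrin-A receptor, had 0.232, 0.467 and 0.164 CPM in T98G sgCon, against 79.6, 79.9 and 72.3 CPM in LN229 sgCon (-8.05 ± 0.12, adjusted p = 2.73e-33). EPHA3, EPHA6, EPHA8, EPHB1, SEMA3E and ROBO2 were also among the largest differences, all lower in T98G by more than 5 on the log2 scale, with means of at most 0.105 CPM there. Of the B-class ephrins, which bind mainly EphB receptors, EFNB2 averaged 0.872 CPM in T98G sgCon and 21.7 CPM in LN229 sgCon (-4.64 ± 0.12, adjusted p = 3.17e-27).

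In LN229 most guidance genes were higher with sgDDA1. Of the 67 tested, 51 were higher, 7 were lower and 9 were not called, against 28.9% of all genes higher and 21.5% lower, 50.4% together. The median log2 fold change of the members was 0.72, against 0.07 over all genes tested. The rise reached 1 on the log2 scale in 25 members, while no fall did. By level, of the 24 members with a mean of 1 to 10 CPM, 23 were higher and 0 lower in the edgeR test, against 44.2% and 10.7% of all genes at that level, and the remaining one had an adjusted p of 0.0533 (EFNA4). Of the 33 members at 10 to 100 CPM, 25 were higher and 6 lower, against 33.7% and 36.6% of all genes at that level. In bulk RNA, fewer cells that express a gene and less RNA per cell cannot be told apart.

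In T98G the members moved both ways. Of the 67 tested, 25 were higher, 21 lower and 21 not called, with 21.6% of all genes higher and 21.8% lower, 43.4% together. The median was 0.11, against 0.00 over all genes, and was also 0.11 over the 64 members with more than 9 counts in at least one of the T98G groups. Changes of at least 1 on the log2 scale were 6 rises and 10 falls. Of the 17 members with a mean of 1 to 10 CPM, 7 were higher and 8 lower, against 27.6% and 17.4% of all genes at that level. Of the 22 at 10 to 100 CPM, 11 were higher and 5 lower, against 29.6% and 35.2%. Of the members called in both lines, 20 were higher in both, 2 were lower in both, 16 were higher in LN229 and lower in T98G, and 3 were lower in LN229 and higher in T98G. Of all genes tested, 9.9% were higher in both, 9.1% lower in both, 5.74% higher in LN229 and lower in T98G, and 3.7% lower in LN229 and higher in T98G. A further 15 were higher in LN229 and 2 lower there without a call in T98G, 2 were higher and 3 lower in T98G alone, and 4 were called in neither line. Sets of this kind depend on the threshold in each line, and the difference of the responses is given with its own test below.

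**Figure D2:**
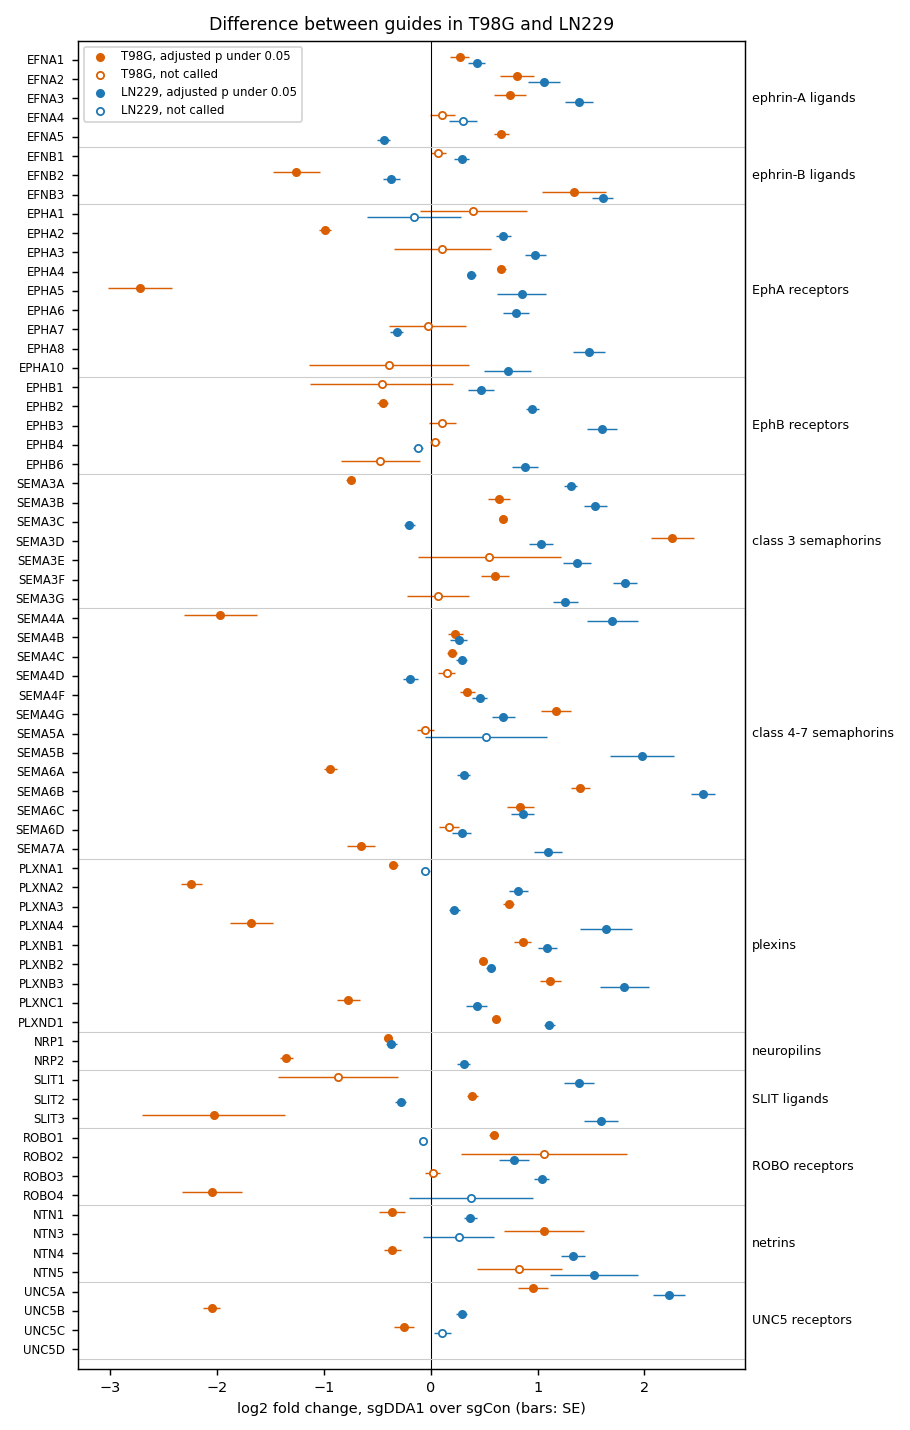
Log2 fold change of sgDDA1 over sgCon for each member in T98G (orange) and LN229 (blue), with SE bars; filled points have an adjusted p under 0.05, and members with at most 9 counts in each group of a line are not drawn for it. In LN229 51 members lie to the right as filled points and 7 to the left, and in T98G 25 lie to the right and 20 to the left, with the called fall of SEMA5B not drawn.

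The ephrin-A ligands, anchored to the membrane by a lipid, were mostly higher with sgDDA1. Called were 4 rises and 0 falls of 5 in T98G, and 3 rises and 1 fall of 5 in LN229. For this and each family below, 21.6% of all genes were higher and 21.8% lower in T98G. In LN229 the shares of all genes were 28.9% and 21.5%. EFNA3 had 3.46, 3.07 and 3.72 CPM in T98G sgDDA1, against 2.39, 2.04 and 1.66 CPM in T98G sgCon (0.74 ± 0.15, adjusted p = 0.000147). The LN229 libraries had 9.34, 7.74 and 8.41 CPM with sgDDA1, against 3.32, 2.78 and 3.64 CPM with sgCon (1.39 ± 0.13, adjusted p = 1.45e-10), with no overlap in either line. EFNA2 had 3.63, 3.27 and 3.61 CPM in T98G sgDDA1, against 1.93, 2.14 and 1.93 CPM in T98G sgCon (0.81 ± 0.16, adjusted p = 6.04e-05), and rose by 1.06 ± 0.15 in LN229. EFNA1 rose by 0.27 in T98G and 0.43 in LN229. EFNA4, EFNA3 and EFNA1 lie next to each other on chromosome 1, and EFNA4 was not called in either line, at 0.11 ± 0.12 in T98G and 0.30 ± 0.13 in LN229.

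EFNA5 went the opposite way in the 2 lines. It had 24.5, 21.8 and 21 CPM in T98G sgDDA1, against 13.6, 15.1 and 13.9 CPM in T98G sgCon (0.66 ± 0.07, adjusted p = 2.22e-09). In LN229 it had 24.6, 24.5 and 23 CPM in sgDDA1, against 34.2, 30 and 33.4 CPM in sgCon (-0.44 ± 0.06, adjusted p = 8.47e-07). The levels of the lines were close with sgDDA1 and apart with sgCon. Among the transmembrane B-class ligands, EFNB3 had 17.8, 16.2 and 16.3 CPM in LN229 sgDDA1, against 5.52, 5.62 and 5.26 CPM in LN229 sgCon (1.61 ± 0.10, adjusted p = 1.52e-14). EFNB3 stayed under 1 CPM in T98G, with 0.558, 0.432 and 0.376 CPM in sgDDA1 and 0.154, 0.156 and 0.226 CPM in sgCon. EFNB2, a marker of arteries, fell in both lines, by 1.26 in T98G, where it was also under 1 CPM, and by 0.37 in LN229. Its LN229 levels were 17.8, 16.6 and 16.2 CPM in sgDDA1, against 22, 21.3 and 22 CPM in sgCon. EFNB1 was higher in LN229 (0.29 ± 0.07) and not called in T98G (0.07 ± 0.07).

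The Eph receptor kinases gave 11 rises and 1 fall among 14 in LN229, and 1 rise and 3 falls among 14 in T98G. The 3 falls in T98G are near the 21.8% of all genes that were lower there. EPHA2, a receptor abundant in many gliomas, had 46.3, 41.5 and 42.8 CPM in T98G sgDDA1, against 86.9, 83 and 89.7 CPM in T98G sgCon (-0.99 ± 0.06, adjusted p = 1.52e-15). Its LN229 levels were 17.4, 15.6 and 15 CPM in sgDDA1, against 10.9, 9.85 and 8.86 CPM in sgCon (0.68 ± 0.07, adjusted p = 6.15e-10). The groups of each line were fully separate, in opposite directions. EPHA5 had 0.129, 0.346 and 0.397 CPM in T98G sgDDA1, against 1.66, 2.04 and 2.07 CPM in T98G sgCon, the largest fall among members with at least 1 CPM there (-2.72 ± 0.30, adjusted p = 5.06e-09). The LN229 libraries had 1.78, 3.01 and 2.6 CPM with sgDDA1, against 1.16, 1.26 and 1.75 CPM with sgCon (0.85 ± 0.23, adjusted p = 0.00224).

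EPHA4, which binds both classes of ephrin, rose in both lines. It had 157, 157 and 158 CPM in T98G sgDDA1, against 97.2, 102 and 100 CPM in T98G sgCon (0.66 ± 0.04, adjusted p = 1.67e-15), and rose by 0.38 ± 0.04 in LN229. EPHB2 had 180, 178 and 184 CPM in T98G sgDDA1, against 246, 251 and 245 CPM in T98G sgCon (-0.45 ± 0.05, adjusted p = 9e-10). The same receptor had 33.5, 26.4 and 30.8 CPM in LN229 sgDDA1, against 16, 16 and 14.8 CPM in LN229 sgCon (0.95 ± 0.06, adjusted p = 4.3e-15). EPHB3 had 7.03, 5.63 and 4.96 CPM in LN229 sgDDA1, against 2.1, 1.82 and 1.85 CPM in LN229 sgCon (1.60 ± 0.14, adjusted p = 1.8e-11), and was not called in T98G (0.11 ± 0.13). Both EPHB2 and EPHB3 were thus higher with sgDDA1 in LN229, and only EPHB2 was called in T98G. EPHA8 had 8.87, 8.24 and 7.6 CPM in LN229 sgDDA1, against 2.78, 3.2 and 2.93 CPM in LN229 sgCon (1.48 ± 0.15, adjusted p = 2.61e-10). EPHA3, EPHA6, EPHA10, EPHB1 and EPHB6 also rose in LN229, by 0.47 to 0.98. EPHA7 fell, with 62.8, 59.5 and 63 CPM in LN229 sgDDA1, against 79.6, 79.9 and 72.3 CPM in LN229 sgCon (-0.32 ± 0.06, adjusted p = 3.3e-05). With all 18 libraries in one fit this was -0.32 ± 0.23 and not called (adjusted p = 0.331). EPHB4, a receptor for EFNB2 in blood vessels, differed by 0.04 ± 0.05 in T98G and -0.12 ± 0.05 in LN229 and was called in neither, as was EPHA1, which stayed under 1 CPM.

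Of the 7 secreted class 3 semaphorins, 6 rose and 1 fell in LN229, and 4 rose and 1 fell in T98G. SEMA3F had 20.3, 18.5 and 18.6 CPM in LN229 sgDDA1, against 5.34, 5.64 and 5.35 CPM in LN229 sgCon (1.82 ± 0.11, adjusted p = 3.93e-15). It rose by 0.60 ± 0.13 in T98G. SEMA3B, its neighbour on chromosome 3, had 5.97, 5.8 and 5.96 CPM in LN229 sgDDA1, against 2.27, 2.01 and 1.75 CPM in LN229 sgCon (1.54 ± 0.11, adjusted p = 4.94e-13), and rose by 0.64 ± 0.10 in T98G. Both genes have been studied as candidate tumour suppressors. SEMA3D had 1.78, 2.03 and 2.28 CPM in T98G sgDDA1, against 0.27, 0.428 and 0.575 CPM in T98G sgCon, the largest rise of the family there (2.26 ± 0.20, adjusted p = 4.03e-11). In LN229 it had 17.4, 14.7 and 16.6 CPM in sgDDA1, against 7.79, 8.25 and 7.9 CPM in sgCon (1.03 ± 0.11, adjusted p = 9.91e-10).

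SEMA3A, the first semaphorin found to collapse growth cones, fell in T98G and rose in LN229. It had 76.9, 76.5 and 75.9 CPM in T98G sgDDA1, against 129, 128 and 128 CPM in T98G sgCon (-0.75 ± 0.04, adjusted p = 2.25e-16). Its LN229 levels were 12.1, 12.2 and 12.5 CPM in sgDDA1, against 5.25, 4.72 and 4.67 CPM in sgCon (1.31 ± 0.06, adjusted p = 3.93e-18). SEMA3C lies in the same stretch of chromosome 7 as SEMA3A, SEMA3D and SEMA3E and moved the other way from SEMA3A. It had 978, 991 and 969 CPM in T98G sgDDA1, against 591, 625 and 616 CPM in T98G sgCon (0.68 ± 0.03, adjusted p = 4.36e-17). The LN229 libraries had 10.7, 11.2 and 11.4 CPM with sgDDA1, against 12.2, 13.3 and 13.1 CPM with sgCon (-0.20 ± 0.05, adjusted p = 0.00184). The fall of SEMA3C in LN229 was not called with all 18 libraries in one fit (-0.21 ± 0.18, adjusted p = 0.438). SEMA3E rose by 1.37 ± 0.13 and SEMA3G by 1.26 ± 0.12 in LN229, and neither was called in T98G, where both were under 1 CPM.

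The 13 membrane-bound semaphorins of classes 4 to 7 gave 11 rises and 1 fall in LN229, and 6 rises and 4 falls in T98G. SEMA6B (ENSG00000167680, chromosome 19), a transmembrane ligand of the A-type plexins, had the largest rise of all members in LN229. It had 9.34, 7.78 and 8.6 CPM in LN229 sgDDA1, against 1.34, 1.64 and 1.48 CPM in LN229 sgCon (2.55 ± 0.11, adjusted p = 2.17e-18). In T98G it had 19.5, 18.6 and 18.9 CPM in sgDDA1, against 7.55, 7.2 and 6.82 CPM in sgCon (1.40 ± 0.09, adjusted p = 4.37e-14). Its relative SEMA6A fell in T98G, with 29.6, 31.4 and 36 CPM in sgDDA1 and 60.2, 63.3 and 62.6 CPM in sgCon (-0.94 ± 0.06, adjusted p = 3.28e-15), and rose by 0.31 ± 0.06 in LN229. The control levels of SEMA6A in T98G were thus not reached in any sgDDA1 library. SEMA6C had 4.66, 4.04 and 5.07 CPM in T98G sgDDA1, against 3.03, 2.38 and 2.26 CPM in T98G sgCon (0.84 ± 0.13, adjusted p = 2.38e-06). It rose by 0.86 ± 0.11 in LN229, a difference between the lines of -0.01 ± 0.17 (SE).

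SEMA7A, which is anchored by a lipid and binds integrins and PLXNC1, had 3.84, 4.37 and 3.47 CPM in T98G sgDDA1, against 6.24, 5.12 and 7 CPM in T98G sgCon (-0.65 ± 0.13, adjusted p = 0.000151), and rose by 1.10 ± 0.13 in LN229. Its receptor PLXNC1 showed the same pair of directions, with 8.63, 6.18 and 5.93 CPM in T98G sgDDA1, against 12.1, 12.1 and 11.2 CPM in T98G sgCon (-0.77 ± 0.11, adjusted p = 4.34e-07), and 0.43 ± 0.10 in LN229. SEMA4G had 5.5, 6.29 and 6.12 CPM in T98G sgDDA1, against 2.51, 2.02 and 3.45 CPM in T98G sgCon (1.17 ± 0.14, adjusted p = 1.24e-08), and rose by 0.68 ± 0.11 in LN229. The groups of T98G did not overlap for any of these 3 genes. SEMA4B, SEMA4C and SEMA4F rose in both lines by 0.20 to 0.46. SEMA4A had 1.89, 2.62 and 2.86 CPM in LN229 sgDDA1, against 0.724, 0.658 and 0.886 CPM in LN229 sgCon (1.70 ± 0.24, adjusted p = 2.46e-07), and fell in T98G, where it was under 1 CPM. SEMA5B had 2.7, 2.06 and 2.42 CPM in LN229 sgDDA1, against 0.529, 0.846 and 0.461 CPM in LN229 sgCon (1.98 ± 0.30, adjusted p = 1.38e-06). In T98G it had 0 counts over the 3 sgDDA1 libraries and 8 over the 3 sgCon libraries, which is called as a fall in edgeR but averages at most 3 counts per library in both groups, so no fold is given. SEMA4D, the ligand of PLXNB1, had 23.5, 21.2 and 20.7 CPM in LN229 sgDDA1, against 24.6, 26.2 and 23.8 CPM in LN229 sgCon (-0.19 ± 0.07, adjusted p = 0.0276). Its adjusted p was 0.204 with all 18 libraries in one fit, 0.136 without LN229 sgCon 2, 0.0973 without LN229 sgDDA1 2 and 0.132 without LN229 sgDDA1 3. SEMA6D rose by 0.29 in LN229 alone, and SEMA5A was called in neither line.

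The plexins, the signalling receptors of the semaphorins, gave 8 rises and 0 falls of 9 in LN229, and 5 rises and 4 falls in T98G. All 3 B-type plexins rose in both lines. PLXNB3 had 34, 37.1 and 30.2 CPM in T98G sgDDA1, against 15.8, 14.4 and 16.4 CPM in T98G sgCon (1.12 ± 0.10, adjusted p = 1.7e-11). In LN229 it had 0.917, 1.05 and 1.44 CPM in sgDDA1, against 0.235, 0.301 and 0.498 CPM in sgCon (1.81 ± 0.23, adjusted p = 6.05e-08). The authors' deposited table gives PLXNB3 a log2 fold change of 1.69 in LN229, with mean normalized read counts of 68.4 in sgDDA1 and 21.7 in sgCon. No other member called higher in LN229 is listed there, SEMA6B included. PLXNB1 had 25.2, 24.5 and 22.6 CPM in T98G sgDDA1, against 13.4, 13 and 13.4 CPM in T98G sgCon (0.86 ± 0.08, adjusted p = 4.35e-11), and rose by 1.09 ± 0.09 in LN229. PLXNB2, the most abundant plexin in T98G by FPKM, had 331, 336 and 336 CPM in T98G sgDDA1, against 236, 241 and 239 CPM in T98G sgCon (0.49 ± 0.04), and rose by 0.56 ± 0.04 in LN229.

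PLXNA2, a receptor for class 3 and class 6 semaphorins, moved in opposite directions. It had 2.96, 3.2 and 2.71 CPM in T98G sgDDA1, against 14.7, 14.1 and 13.1 CPM in T98G sgCon (-2.24 ± 0.10, adjusted p = 1.45e-18). Its LN229 levels were 14.7, 14.6 and 14.6 CPM in sgDDA1, against 8.96, 7.71 and 8.12 CPM in sgCon (0.82 ± 0.09, adjusted p = 1.14e-09). PLXNA4 had 1.27, 1.38 and 1.65 CPM in T98G sgDDA1, against 5.12, 4.89 and 3.78 CPM in T98G sgCon (-1.68 ± 0.20, adjusted p = 2.82e-08), and moved up in LN229, with 1.62, 1.14 and 1.87 CPM in sgDDA1, against 0.578, 0.545 and 0.314 CPM in sgCon (1.64 ± 0.24, adjusted p = 5.96e-07). Its levels in the 2 lines were close with sgDDA1. PLXNA3 had 43.5, 43.9 and 44.7 CPM in T98G sgDDA1, against 25.9, 26.8 and 27.2 CPM in T98G sgCon (0.73 ± 0.05, adjusted p = 4.17e-13), and rose by 0.22 ± 0.05 in LN229. PLXND1, a receptor of SEMA3E, rose by 0.61 ± 0.04 in T98G and by 1.11 ± 0.05 in LN229. PLXNA1 had 103, 103 and 100 CPM in T98G sgDDA1, against 129, 132 and 131 CPM in T98G sgCon (-0.35 ± 0.04, adjusted p = 1.76e-08), and was not called in LN229 (-0.05 ± 0.04).

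Of the neuropilins, the co-receptors of class 3 semaphorins and of VEGF, NRP1 fell by a like amount in both lines. It had 141, 144 and 137 CPM in T98G sgDDA1, against 184, 184 and 189 CPM in T98G sgCon (-0.40 ± 0.04, adjusted p = 4.58e-10), and 17.5, 17.7 and 15.8 CPM in LN229 sgDDA1, against 22.9, 21.9 and 21.1 CPM in LN229 sgCon (-0.37 ± 0.05, adjusted p = 1.31e-07). NRP2, the main co-receptor of SEMA3F, had 19.7, 17 and 17.5 CPM in T98G sgDDA1, against 45.5, 43.8 and 48.6 CPM in T98G sgCon (-1.35 ± 0.06, adjusted p = 2.59e-18). The LN229 libraries had 37.8, 37.5 and 37 CPM with sgDDA1, against 30.3, 32.4 and 27.9 CPM with sgCon (0.31 ± 0.06, adjusted p = 3.07e-05). In T98G sgDDA1 the ligand SEMA3F was thus higher while its co-receptor was lower, and in LN229 sgDDA1 both were higher.

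**Figure D3:**
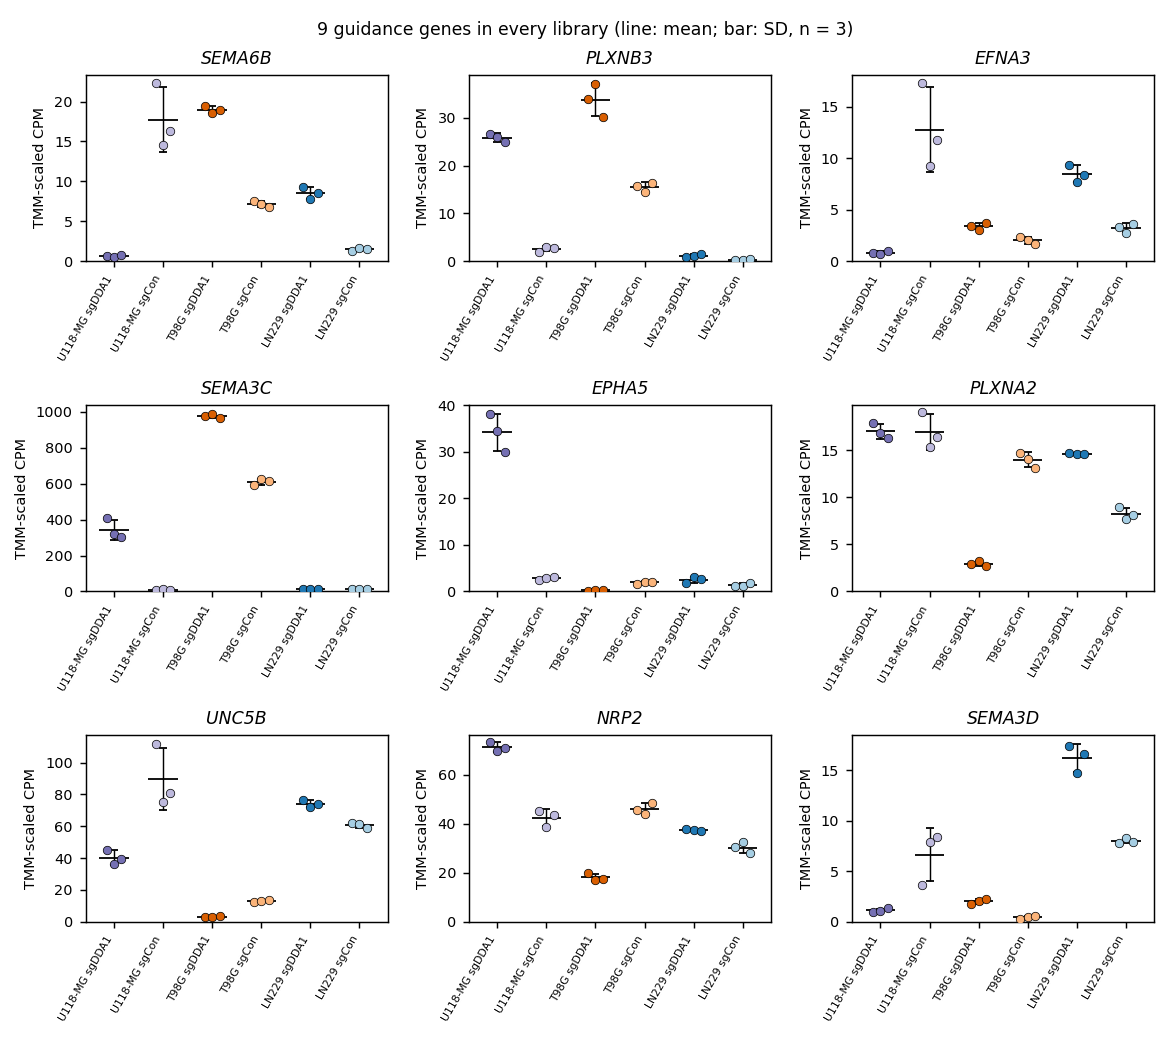
TMM-scaled CPM of 9 members in every library of the 6 labelled groups, with the mean as a line and the SD as a bar (n = 3 each); each panel has its own axis from 0. SEMA6B, PLXNB3, EFNA3 and SEMA3D are higher in sgDDA1 than in sgCon in both T98G and LN229, EPHA5, PLXNA2, UNC5B and NRP2 are lower in T98G and higher in LN229, and SEMA3C is higher in T98G.

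Among the secreted SLIT ligands, SLIT2 had 48.4, 45.4 and 45.1 CPM in T98G sgDDA1, against 34.8, 38.9 and 32.5 CPM in T98G sgCon (0.39 ± 0.05, adjusted p = 1.93e-07). In LN229 it had 149, 140 and 148 CPM in sgDDA1, against 176, 184 and 170 CPM in sgCon (-0.28 ± 0.05, adjusted p = 4.73e-06), which was not called with all 18 libraries in one fit (-0.28 ± 0.14, adjusted p = 0.135). SLIT3 had 10, 8.68 and 9.65 CPM in LN229 sgDDA1, against 3.18, 3.37 and 2.86 CPM in LN229 sgCon (1.59 ± 0.16, adjusted p = 2.91e-10). SLIT1 rose there by 1.39 ± 0.14. In T98G SLIT3 had 5 counts in sgDDA1 and 23 in sgCon over 3 libraries each, and is called as a fall although the groups overlapped. The receptor ROBO1 had 234, 229 and 236 CPM in T98G sgDDA1, against 154, 153 and 159 CPM in T98G sgCon (0.59 ± 0.04, adjusted p = 2.25e-15), and was not called in LN229 (-0.07 ± 0.03, adjusted p = 0.105). ROBO3 showed the reverse, with 19, 20.1 and 20.9 CPM in LN229 sgDDA1, against 8.4, 10.4 and 10.8 CPM in LN229 sgCon (1.04 ± 0.07, adjusted p = 1.24e-13), and 0.02 ± 0.07 in T98G. ROBO4, known from blood vessels, had 1.1, 0.627 and 0.522 CPM in T98G sgDDA1, against 3.03, 2.94 and 3.33 CPM in T98G sgCon (-2.05 ± 0.28, adjusted p = 1.87e-07). ROBO2 rose by 0.78 ± 0.14 in LN229 and was under 0.2 CPM in T98G.

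The netrins gave 3 rises of 4 in LN229, and 1 rise and 2 falls in T98G. NTN4, a netrin of basement membranes, had 4.55, 5.65 and 4.56 CPM in LN229 sgDDA1, against 2.28, 1.71 and 1.74 CPM in LN229 sgCon (1.33 ± 0.11, adjusted p = 1.15e-11), and fell by 0.36 ± 0.08 in T98G. NTN1, the founding netrin, rose by 0.37 ± 0.06 in LN229 and fell by 0.36 ± 0.12 in T98G, where the groups overlapped. NTN5 rose in LN229 and NTN3 in T98G, both with means under 1 CPM in sgDDA1 and in sgCon, and the T98G groups of NTN3 overlapped. Of the UNC5 receptors, which carry repulsion by netrins, UNC5A had 6.16, 6.23 and 6.16 CPM in T98G sgDDA1, against 3.17, 3.49 and 2.9 CPM in T98G sgCon (0.96 ± 0.14, adjusted p = 6.19e-07). Its LN229 levels were 5.43, 4.67 and 4.98 CPM in sgDDA1, against 1.18, 0.809 and 1.16 CPM in sgCon (2.23 ± 0.15, adjusted p = 5.51e-14). UNC5B had 3.14, 3.01 and 3.26 CPM in T98G sgDDA1, against 12.3, 13.1 and 13.6 CPM in T98G sgCon (-2.05 ± 0.08, adjusted p = 7.58e-21), and rose by 0.29 ± 0.05 in LN229. UNC5C fell by 0.25 ± 0.09 in T98G and was not called in LN229 (0.11 ± 0.08).

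The difference of the responses, T98G minus LN229, was tested as an interaction. It was above 0 in 9 members, below 0 in 33 and not called in 25, against 18.3% and 20.9% of all genes, 39.2% together, with a median of -0.70 for the members and -0.02 over all genes. Among members with at least 1 CPM in both lines, the largest differences were -3.56 ± 0.38 for EPHA5, -3.32 ± 0.31 for PLXNA4, -3.06 ± 0.13 for PLXNA2, -2.34 ± 0.09 for UNC5B, -2.06 ± 0.07 for SEMA3A, -1.75 ± 0.19 for SEMA7A, -1.69 ± 0.14 for NTN4 and -1.67 ± 0.09 for EPHA2, all with an adjusted p of at most 3.02e-09. In all 8 the response was negative in T98G and positive in LN229. Above 0 were SEMA3D with 1.23 ± 0.24, EFNA5 with 1.09 ± 0.10, SEMA3C with 0.88 ± 0.06, SLIT2 with 0.66 ± 0.07, ROBO1 with 0.65 ± 0.05, PLXNA3 with 0.51 ± 0.07, SEMA4G with 0.49 ± 0.18, SEMA4D with 0.34 ± 0.11 and EPHA4 with 0.28 ± 0.06. Responses of like size were seen for PLXNB2, with a difference of -0.07 ± 0.05, for NRP1 with -0.03 ± 0.06 and for SEMA4B with -0.03 ± 0.10 (SE), none of them called.

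**Figure D4:**
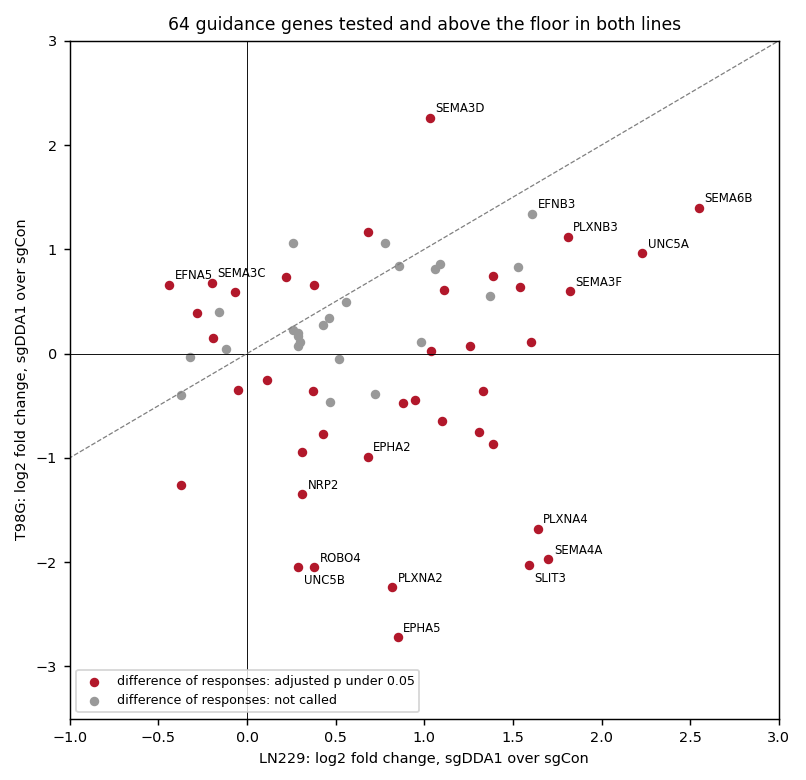
Log2 fold change of sgDDA1 over sgCon in T98G (vertical) against LN229 (horizontal), for the 64 members tested and with more than 9 counts in at least one group of each line; red points differ between the lines at an adjusted p under 0.05, and the dashed line marks equal responses. Most red points lie below the dashed line, with SEMA4A, SLIT3, EPHA5, PLXNA4 and PLXNA2 farthest below it and SEMA3D above it.

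U118-MG sgDDA1 was set against the other sgDDA1 groups, which compares lines labelled with the same guide. Against T98G sgDDA1, 33 members were higher and 26 lower of 68 (34.4% and 34.1% of all genes, 68.5% together), and against LN229 sgDDA1 29 were higher and 34 lower (38.6% and 41% of all genes, 79.6% together). SEMA5A had 313, 293 and 278 CPM in U118-MG sgDDA1, against 27.1, 31.6 and 28.9 CPM in T98G sgDDA1 (3.34 ± 0.07) and 0.108, 0.0322 and 0.0719 CPM in LN229 sgDDA1 (11.98 ± 0.13). The LN229 sgDDA1 libraries held 12 counts of SEMA5A in all, so the SE of that difference may be too small. NTN4 had 385, 437 and 437 CPM in U118-MG sgDDA1, against 19.5, 19.5 and 19.2 CPM in T98G sgDDA1 (4.44 ± 0.07) and a mean of 4.92 CPM in LN229 sgDDA1 (6.38 ± 0.08). PLXNA4 averaged 114 CPM in U118-MG sgDDA1, 107 CPM at the lowest, against means of 1.43 CPM in T98G sgDDA1 (6.31 ± 0.11) and 1.54 CPM in LN229 sgDDA1 (6.19 ± 0.11). Each of these was far above its level in both other lines.

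EPHA5 had 38.1, 34.4 and 30 CPM in U118-MG sgDDA1, against means of 0.291 CPM in T98G sgDDA1 (6.87 ± 0.23) and 2.47 CPM in LN229 sgDDA1 (3.76 ± 0.16). EFNB2 averaged 31.2 CPM in U118-MG sgDDA1, against 0.363 CPM in T98G sgDDA1 (6.42 ± 0.12) and 16.9 CPM in LN229 sgDDA1 (0.86 ± 0.07). EPHA3 averaged 11.2 CPM in U118-MG sgDDA1, against 0.113 CPM in T98G sgDDA1 (6.60 ± 0.28) and 14.4 CPM in LN229 sgDDA1 (-0.39 ± 0.14). EPHB1 averaged 14.6 CPM in U118-MG sgDDA1, against 0.0568 CPM in T98G sgDDA1 (7.94 ± 0.22) and 11.5 CPM in LN229 sgDDA1 (0.31 ± 0.11). The T98G sgDDA1 levels of EPHA3 and EPHB1 rest on 16 and 8 counts in all. These 3 genes were thus lowest in T98G sgDDA1 of the sgDDA1 groups. Lower in U118-MG sgDDA1 were EFNA1, with a mean of 0.214 CPM against 13 CPM in T98G sgDDA1 (-5.89 ± 0.19) and 18 CPM in LN229 sgDDA1 (-6.39 ± 0.18), and PLXND1, with 2.51 CPM against 138 CPM in T98G sgDDA1 (-5.77 ± 0.09) and 45.7 CPM in LN229 sgDDA1 (-4.21 ± 0.09). UNC5A had 1 count over the 3 U118-MG sgDDA1 libraries, and EPHA6 and EPHA10 had 3 each. The fibroblast and pericyte markers summed to 3202 to 3903 CPM in U118-MG sgDDA1, 357 to 362 CPM in T98G sgDDA1 and 32.8 to 36.6 CPM in LN229 sgDDA1, and their part in these differences was not tested.

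Taken as labelled, U118-MG sgDDA1 had 25 members higher and 35 lower than U118-MG sgCon of 68 (35.3% and 36.9% of all genes, 72.2% together). Without U118-MG sgCon 1 the counts were 27 and 38. The largest included EFNA1, with 0.162, 0.152 and 0.328 CPM in U118-MG sgDDA1, against 44.8, 29.8 and 30.5 CPM in U118-MG sgCon (-7.33 ± 0.23, adjusted p = 1.34e-16), and SEMA3G, with means of 0.29 CPM in U118-MG sgDDA1 and 27.8 CPM in U118-MG sgCon (-6.56 ± 0.26). Without U118-MG sgCon 1 these were -7.12 ± 0.17 and -6.45 ± 0.22. Line and guide cannot be told apart here, since the control libraries resemble LN229. In those control libraries SEMA6B had 22.3, 14.6 and 16.3 CPM, while LN229 sgDDA1 had 7.78 to 9.34 CPM and LN229 sgCon 1.34 to 1.64 CPM. EFNB3 had 27.2, 18.8 and 20.6 CPM in the libraries labelled U118-MG sgCon, while LN229 sgDDA1 had 16.2 to 17.8 CPM and LN229 sgCon 5.26 to 5.62 CPM. SEMA3F had 30.1, 18.1 and 22.2 CPM in the libraries labelled U118-MG sgCon, while LN229 sgDDA1 had 18.5 to 20.3 CPM and LN229 sgCon 5.34 to 5.64 CPM. For these 3 genes the libraries labelled U118-MG sgCon lay nearer to LN229 sgDDA1 than to LN229 sgCon. Members were not alike in this, since the means of SEMA3A, SEMA3D, SEMA3E and ROBO2 lay nearer to LN229 sgCon. SEMA3D averaged 6.62 CPM in the libraries labelled U118-MG sgCon, against 16.2 CPM in LN229 sgDDA1 and 7.98 CPM in LN229 sgCon. DDA1 in the same libraries, at 71.8, 56 and 50.1 CPM, was above both LN229 groups, and UNC5B, at 112, 75.5 and 81.2 CPM, was within or above LN229 sgDDA1 with 72.4 to 76.4 CPM.

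A list of 70 genes that act beside or below these receptors was read in the same fits. In LN229 30 were higher and 14 lower of 67 tested, against 28.9% and 21.5% of all genes, with a median of 0.10 against 0.07 over all genes. In T98G 21 were higher and 21 lower, against 21.6% and 21.8% of all genes, with a median of 0.03 against 0.00. In LN229 the counts were 8 higher and 4 lower of 17 effectors of Eph receptors, 9 and 4 of 21 plexin effectors, 7 and 3 of 16 SLIT and ROBO effectors, and 6 and 3 of 13 netrin and repulsive guidance relatives. The corresponding counts in T98G were 4 and 6, 9 and 7, 3 and 7, and 5 and 1. DRAXIN, a secreted ligand of DCC, rose by 2.39 in LN229, with means of 2.39 CPM in sgDDA1 and 0.462 CPM in sgCon, and the adhesion protein L1CAM rose by 1.99. NTNG2, a membrane-linked netrin relative, rose by 1.81 in LN229 and 1.06 in T98G, and the authors' deposited table gives it 1.76 in LN229. No other gene of this list is given there, but only the part marked as up was read, where genes lower in LN229 would not appear. GRB10, an adaptor of receptor kinases, fell by 1.27 in T98G, with means of 95.4 CPM in sgDDA1 and 230 CPM in sgCon. ABLIM1, an actin-binding protein, fell by 1.25 there, and MICAL2, a relative of the plexin partner MICAL1, by 0.97. SHB, an SH2 adaptor, PAK2, a kinase activated by RAC, and ARHGEF11, an exchange factor bound by B-type plexins, had the largest falls in LN229 among genes of the list with at least 1 CPM, from 0.26 to 0.65 on the log2 scale. FLRT2 fell further there, by 2.24 ± 0.58, at means of 0.0335 CPM in sgDDA1 and 0.188 CPM in sgCon, and rose by 1.02 in T98G.

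The sources used here do not state whether reads were counted by strand. In GENCODE 29, 37 of the 68 members overlap a gene on the opposite strand, EPHA5, SEMA3F, SEMA6A, UNC5B and PLXNB3 among them, and without strand the reads of such pairs cannot be told apart.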

How the data were processed

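The authors deposited whole-number read counts and FPKM per gene for 18 libraries, and a table of genes changed in LN229, of which the part marked as up was read. Its headers name a signal deposited as normalized read counts averaged over each LN229 group, and the authors also deposited there a log2 fold change and a p-value. Per the submitters' processing notes, fastp 0.19.6, STAR 2.4.0, HTSeq 0.12.4, DESeq2 and GRCh38 were used, and strand and gene annotation are not given in the sources used here. Positions are from GENCODE 29 (GRCh38) and promoters from RefSeq. The gene families and lists were chosen with earlier results of these data known, and the members then taken by symbol. Work with the deposited counts used R 4.3.3 and edgeR 4.0.16, with filterByExpr, TMM scaling and the quasi-likelihood F-test, after trials on simulated data, with Benjamini-Hochberg adjustment over all genes and a threshold of 0.05. The 12 T98G and LN229 libraries were fitted together, the 9 sgDDA1 libraries together, and all 18 for U118-MG as labelled. Levels are CPM scaled by TMM factors of the 18 libraries, and floors cover counting error only. Each SE of a log2 difference is the absolute difference divided by the square root of its F statistic. Such an SE can be too small for a large difference that rests on few counts. Named genes were the 12 largest rises and falls per guide contrast and the 8 largest differences elsewhere, among members called, with at least 1 CPM in one group and groups that did not overlap, plus the 10 members of highest mean FPKM. For the difference of responses, 1 CPM in both lines and separation in at least 1 line were asked. Other members are named to account for all of them. Alternatives were DESeq2 1.42.0 and its size factors, no filter, halved counts, a replicate block, all 18 libraries together and each library left out.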

Additional observations from a re-analysis of the deposited data

Results flagged for a closer look

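The response to the guide differed between T98G and LN229 for 26 named members with at least 1 CPM in both lines. This is the interaction test of edgeR at an adjusted p under 0.05, which called 39.2% of all genes. Members were named for a call in these same contrasts, so the count is no separate result. SEMA5B, SEMA4A, SLIT3, EPHA8, EFNB2 and ROBO4 were also named and called, but stayed under 1 CPM in one of the lines. Given as T98G minus LN229 on the log2 scale, the difference among ephrins and Eph receptors was 1.09 for EFNA5, -0.64 for EFNA3, -3.56 for EPHA5, -1.67 for EPHA2, -1.49 for EPHB3 and -1.41 for EPHB2. For the class 3 semaphorins it was 1.23 for SEMA3D, 0.88 for SEMA3C, -0.89 for SEMA3B, -1.22 for SEMA3F and -2.06 for SEMA3A. For the other semaphorins it was 0.49 for SEMA4G, 0.34 for SEMA4D, -1.15 for SEMA6B, -1.25 for SEMA6A and -1.75 for SEMA7A. The receptors of the semaphorins gave 0.51 for PLXNA3, -0.68 for PLXNB3, -1.20 for PLXNC1, -3.06 for PLXNA2, -3.32 for PLXNA4 and -1.66 for NRP2. The remaining ones were 0.66 for SLIT2, -1.69 for NTN4, -1.28 for UNC5A and -2.34 for UNC5B.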

How the results depend on the processing

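With all 18 libraries in one fit, members lower in LN229 numbered 3 and not 7, and genes called over the whole table numbered 7185 in LN229 against 11632, 5402 in T98G against 10013 and 4227 for the difference of responses against 9044. Members higher in LN229 were 44 against 51, members higher and lower in T98G 21 and 18 against 25 and 21, and those of the difference of responses 6 and 27 against 9 and 33. EPHA7, SLIT2, SEMA3C and SEMA4D in LN229 then missed the threshold at log2 fold changes of -0.32, -0.28, -0.21 and -0.19, and that fit takes in the spread of the libraries labelled U118-MG. No named member changed direction under the alternatives run. Leaving out 1 library at a time gave 50 to 52 members higher, 6 to 10 lower and 10397 to 11005 genes called in LN229, 23 to 25, 18 to 20 and 9204 to 9363 in T98G, 8 to 10, 31 to 35 and 8421 to 8732 for the difference of responses, 29 to 30, 31 to 32 and 17548 to 17870 between the control groups, 26 to 29, 33 to 34 and 17893 to 18353 for U118-MG sgDDA1 against LN229 sgDDA1, 32 to 33, 24 to 27 and 15173 to 15715 against T98G sgDDA1, and 25 to 27, 34 to 38 and 17087 to 18499 for U118-MG as labelled. Same-numbered libraries had correlations of deviations of 0.05 to 0.12 in LN229, -0.02 to 0.01 in T98G and -0.08 to 0.09 in U118-MG. Each LN229 library correlated best with its own number, against -0.10 to 0.02 for other numbers. With the replicate number as a block, 52 members were higher and 8 lower in LN229, 24 and 21 in T98G, 9 and 34 for the difference of responses, 30 and 32 between the control groups, 27 and 34 for U118-MG sgDDA1 against LN229 sgDDA1, 33 and 26 against T98G sgDDA1, and 25 and 34 for U118-MG as labelled. Depth limits EPHA6, EPHA8, SEMA5B and UNC5D in T98G, which had at most 9 counts in each group.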
